A study of Drosophila melanogaster with 16 samples.

Results

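The exons described here lay above 2 RPM, the read count of an exon scaled to the sum over all exons of its library, in all 4 TRAP libraries of a sex and at or below 2 RPM in all 4 total mRNA libraries of that sex. They were chosen by these RPM values, so that the TRAP and total mRNA levels of the same sex are given as a description, with no test. Of 87508 exon rows in the table, 1790 met the rule in at least 1 sex, which is 2.05% of rows. In males 499 rows met it and in females 1564. Split by sex, 226 rows were male-only, 1291 were female-only and 273 met the rule in both sexes. These counts move with single libraries and with scaling: without male TRAP replicate 5 the male count was 839 and the male-only count 489, without male total mRNA replicate 4 they were 770 and 406, and after TMM scaling, a correction for unequal RNA composition, 476 exons were female-only. The 1790 rows came from 1091 of 17753 genes. Some rows repeat an exon interval under another transcript, and the rows held 1728 distinct intervals.

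The libraries came from fly heads (Drosophila melanogaster, adults aged 10 to 12 days). TRAP and total mRNA were each sequenced in 4 libraries of males and 4 of females. All flies, those of the total mRNA groups too, carried fru P1-Gal4 on 1 chromosome, UAS-GFP::RpL10A opposite UAS-Gal4 on another pair, both inserts marked with w+mC, and a w mutant X; the UAS-Gal4 insert is marked as not functional in the strain list of the study. Each library pooled flies sorted by sex. The driver marks cells with activity of the P1 promoter of fru, and total mRNA was taken from the lysate before the pull-down, so it contains the driver's cells as well. TRAP, translating ribosome affinity purification, recovers mRNA bound to ribosomes that carry a GFP-tagged ribosomal protein. The P1 promoter of fruitless (fru) is active in a minority of neurons, many of which serve courtship, and its transcripts are spliced differently in males and females. In a whole head most RNA comes from other cells, and an mRNA of a small group of neurons is diluted in the total. In bulk libraries, fewer cells of a type and less RNA per cell cannot be told apart.

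Sums of exon counts ran from 15353672 to 25419045 per library, and 2 RPM stood for 30.7 to 50.8 reads. TMM scaling factors were lowest in female total mRNA, from 0.706 up, and lay between 0.901 and 1.28 in the other groups. Summed levels of synapse genes were higher in every TRAP library than in any total mRNA library, and those of glial and photoreceptor genes were lower in every TRAP library than in any total mRNA library of the same sex. The 30 synapse genes summed to between 27019 and 29947 RPM in male TRAP and between 13507 and 18163 RPM in male total mRNA. The 10 glial genes summed to between 725 and 1165 RPM in male TRAP and between 1616 and 2098 RPM in male total mRNA, and to between 534 and 744 RPM in female TRAP and between 1153 and 1546 RPM in female total mRNA. The 19 photoreceptor genes summed to between 23817 and 41586 RPM in male TRAP and between 67201 and 79710 RPM in male total mRNA, and to between 15574 and 21630 RPM in female TRAP and between 45434 and 53420 RPM in female total mRNA. Of the 14 muscle genes the sums overlapped between TRAP and total mRNA in females, and the 11 testis genes summed to at most 94 RPM in any library. None of the genes in the glial, photoreceptor, fat body (8 genes), muscle or testis lists had an exon that met the rule, where 6.15% of all genes had one. In male total mRNA, 10 of 10 glial, 19 of 19 photoreceptor, 7 of 8 fat body and 11 of 14 muscle genes had an exon above 2 RPM in every library. The rule itself bars such exons. No testis gene had an exon above 2 RPM in every TRAP library of either sex. The absence of these lists thus follows in part from the values of the rule and is a description. An exon of sev, which is known from the R7 photoreceptor and is not in these lists, met the rule in males.

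The exons were not absent from total mRNA. No exon that met the rule lacked reads in all 4 total mRNA libraries of its sex, and 1 exon had a total mRNA library without a read. The median exon had 117 reads over the 4 male total mRNA libraries for the male rule and 112 over the 4 female ones for the female rule. They are therefore described by the rule, as exons above 2 RPM in TRAP only. Mean TRAP levels had a median of 3.11 RPM in males, against a mean total mRNA level with a median of 1.29 RPM. In females these medians were 3.6 RPM in TRAP and 1.23 RPM in total mRNA. The ratio of the means was over 2 for 398 of 499 exons (79.8%) in males and for 1437 of 1564 (91.9%) in females, and over 4 for 80 exons (16%) in males and 448 (28.6%) in females. Near the threshold the rule divides like from like. In males, an exon of Su(var)3-3 had 2.0064 RPM in its lowest TRAP library and met the rule, whereas an exon of CG8097 had 1.9982 RPM and did not. In females, an exon of Kat60 met the rule with 2.0145 RPM in its lowest TRAP library and an exon of CG10038 did not with 1.9748 RPM. Within 0.1 RPM of the rule on the outside lay 263 exons in males and 344 in females.

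**Figure D1:**
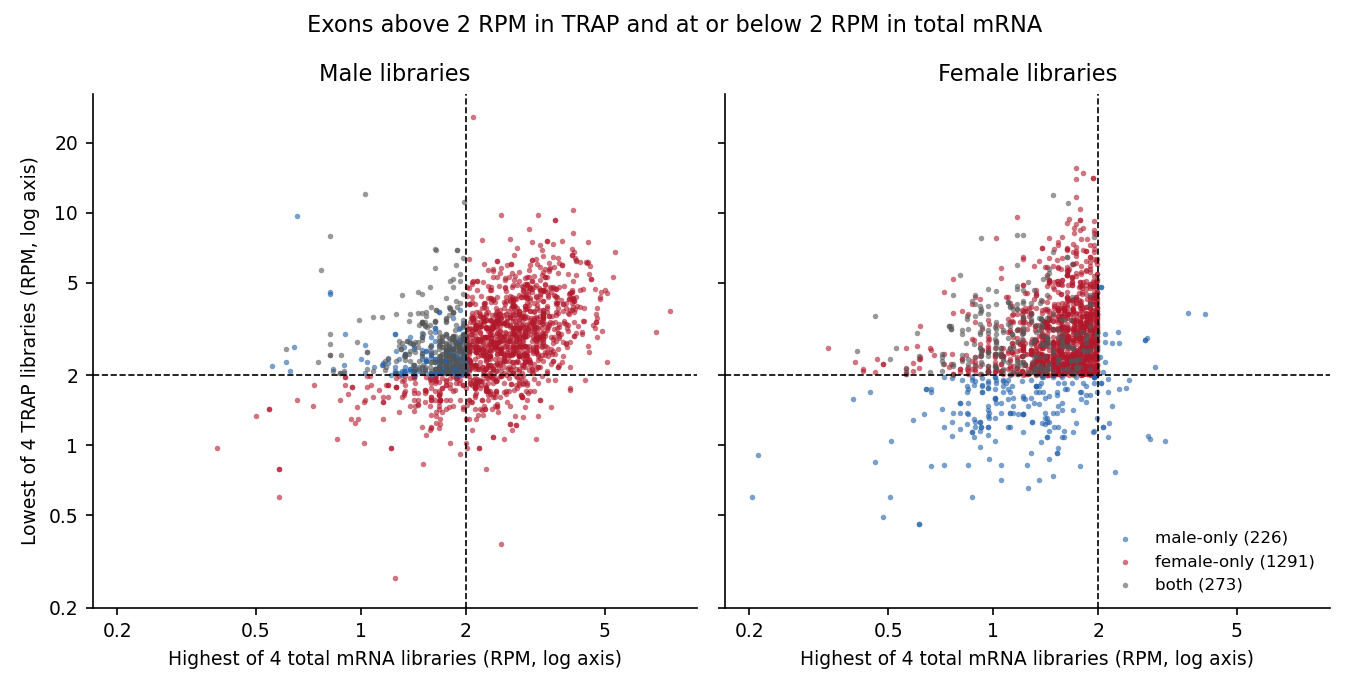
For every exon that met the rule in either sex, the lowest of the 4 TRAP libraries (vertical, RPM, log axis) is plotted against the highest of the 4 total mRNA libraries (horizontal, RPM, log axis), in male libraries on the left and female libraries on the right, with dashed lines at 2 RPM. Female-only exons (red) lie mostly to the right of the vertical line in males, and male-only exons (blue) mostly below the horizontal line in females.

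The sex-only classes failed the rule in the other sex in different ways. Of the 226 male-only exons, 194 (85.8%) failed in females because a TRAP library lay at or below 2 RPM, 16 because a total mRNA library lay above 2 RPM, and 16 for both reasons. Female TRAP libraries differed in this: 87 and 99 of the male-only exons exceeded 2 RPM in replicates 4 and 5, against 181 and 171 in replicates 2 and 3. Of the 1291 female-only exons, 158 (12.2%) failed in males on TRAP, 980 (75.9%) on total mRNA and 153 on both. A single library decided the failure for 103 male-only exons (45.6%) and for 390 female-only exons (30.2%). Female-only exons had a median level of 3.61 RPM in female TRAP and 1.29 RPM in female total mRNA, and of 3.75 RPM in male TRAP and 1.99 RPM in male total mRNA. The mean TRAP level was above the mean total mRNA level in the other sex for 98.7% of each sex-only class. These are descriptions, since the classes were formed from the same values, and they do not show a difference between the sexes in the pull-down.

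Beside the counts of exons in the sexes stand the levels of fat body transcripts. The 8 fat body genes, which include abundant secreted proteins, summed to between 20924 and 31519 RPM in female TRAP and between 72047 and 86321 RPM in female total mRNA, and to between 1587 and 4279 RPM in male TRAP and between 4270 and 5106 RPM in male total mRNA. The part of these transcripts in the counts was not tested. With CPM, which are RPM before such scaling, scaled by TMM factors, 284 exons met the rule in males and 616 in females. Of the exons that met it with deposited RPM, 248 (49.7%) in males and 610 (39%) in females met it after this scaling.

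Whether the exons of one sex were also raised in TRAP in the other sex was asked in libraries that the rule had not used. Exons that met the rule in males were tested in female TRAP against female total mRNA, with the exact test of edgeR and a false discovery rate (FDR) under 0.2 over all exons tested. Of 498 exons tested, 452 (90.8%) were higher in TRAP and 1 (0.201%) was lower, while over all 50572 exons tested 36.5% were called higher and 33.4% lower. The median log2 fold change was 1.38 for these exons and 0.04 for all exons. In the mirror test, 1227 of 1564 exons of the female rule (78.5%) were higher in TRAP of males and 4 (0.256%) were lower, against 27.4% called higher and 26.4% called lower over all 52528 exons. The median log2 fold change was 0.85 for these exons and 0.03 for all exons. Without TMM scaling, on library totals alone, 478 exons of the male rule were higher and 0 lower in female TRAP, with 22938 higher and 11875 lower over all exons, and 1384 exons of the female rule were higher and 3 lower in male TRAP, with 19180 higher and 10749 lower over all exons. The filter of the study, a CPM above 2 in 60% of libraries, let 20 exons of the male rule into the test in females. Of these, 14 (70%) were called higher in TRAP, against 40.7% of all exons tested. In males it let in 1046 exons of the female rule, of which 754 (72.1%) were called higher, against 31.4% of all exons.

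The exons that moved the other way were few. An exon of Vajk2 that met the rule in males had 2.07 ± 0.888 RPM in female TRAP and 2.35 ± 0.29 RPM in female total mRNA (SD, n = 4 each), with a log2 fold change of -0.49 (SE 0.28, edgeR adjusted p = 0.163). The only exon of GstD2, a glutathione S-transferase of a family of similar neighbouring genes, met the rule in females with 3.29 ± 1.98 RPM in TRAP and 1.33 ± 0.417 RPM in total mRNA, and fell in male TRAP to 0.884 ± 0.592 RPM, against 2.15 ± 0.653 RPM in male total mRNA (log2 fold change -1.48, SE 0.42, edgeR adjusted p = 0.00318). The other exons of the female rule that were lower in male TRAP belonged to CG32650, CG10063 and Egfrap, with log2 fold changes of -1.32, -0.71 and -0.50.

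**Figure D2:**
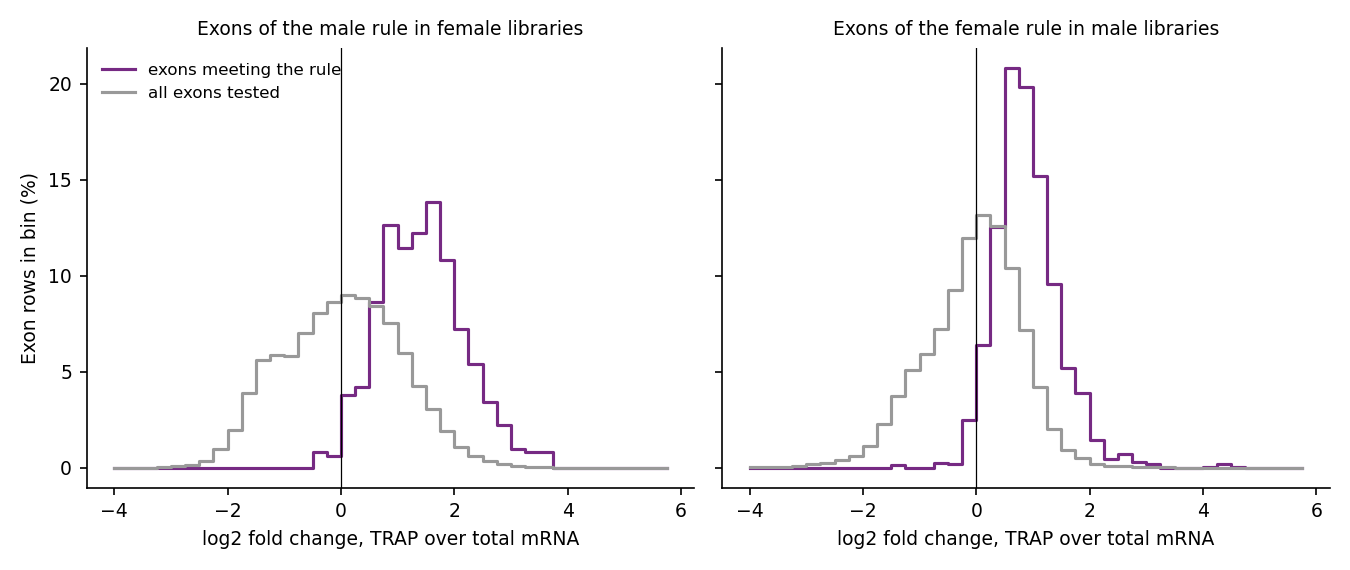
Share of exon rows (vertical, %) by log2 fold change of TRAP over total mRNA (horizontal, bins of 0.25) for exons that met the rule (purple) and for all exons tested (grey). Exons of the male rule were fitted in female libraries on the left (median 1.38, all exons 0.04), and exons of the female rule in male libraries on the right (median 0.85, all exons 0.03).

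Among the male-only exons, the one with the highest lowest TRAP library was the first exon of Ilp3, which encodes an insulin-like peptide made by neurosecretory cells of the brain (3L:9801875-9802120, minus strand, dm6, 5′ UTR and coding). It had 22.1, 22.4, 32.7 and 9.63 RPM in male TRAP, against 0.163, 0.6, 0.655 and 0.334 RPM in male total mRNA. In females it had 6.84, 5.28, 3.01 and 3.16 RPM in TRAP and 0.548, 0.282, 0.395 and 2.09 RPM in total mRNA, so that it failed the rule there by a single total mRNA library. The groups did not overlap in either sex, and the log2 fold change in females was 2.16 (SE 0.46, edgeR adjusted p = 2.38e-05). The last exon of Cpr62Bc, which encodes a cuticular protein (3L:1840281-1841187), had 4.54 to 11.3 RPM in the 4 male TRAP libraries and 0.459 to 0.815 RPM in male total mRNA. In females its lowest TRAP library, at 0.459 RPM, lay inside the range of total mRNA, 0.22 to 0.612 RPM. The other exons of the leading 10 had at least 3.05 RPM in every male TRAP library and lay in tyn, CG43689, sev, CG30158, CG32700, CG14785, nAChRalpha1 (a nicotinic acetylcholine receptor subunit) and sff (a protein kinase). All 10 except that of sev were called higher in female TRAP. Male-only exons were chosen partly by failing the rule in these female libraries, so calls and p-values for them there are a description. For the internal exon of sev, the receptor tyrosine kinase known from the R7 photoreceptor, male TRAP had 3.67, 3.34, 5.1 and 11.2 RPM and male total mRNA 1.06, 0.857, 1.53 and 1.96 RPM. In females the sev groups overlapped, and the log2 fold change was 0.20 (SE 0.30, edgeR adjusted p = 0.625).

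The leading 10 female-only exons had higher levels, with 9.18 to 15.6 RPM in the lowest female TRAP library. First was the last exon of Tdc2, the neuronal tyrosine decarboxylase that starts tyramine and octopamine synthesis (2R:6684745-6685161, minus strand, coding and 3′ UTR). It had 19.2, 15.6, 22.6 and 18 RPM in female TRAP and 0.801, 0.603, 0.835 and 1.73 RPM in female total mRNA. In males it had 13.8, 17.3, 20.4 and 9.77 RPM in TRAP and 1.06, 2.53, 1.58 and 1 RPM in total mRNA. The male total mRNA library at 2.53 RPM alone kept this exon out of the class of both sexes, and the log2 fold change in males was 3.11 (SE 0.31, edgeR adjusted p = 2.05e-19). The last exon of Gyc89Db, a soluble guanylyl cyclase subunit (3R:16478751-16481070), had 14.8 to 17.3 RPM in female TRAP and 1.18 to 1.81 RPM in female total mRNA, and 8.53 to 12 RPM in male TRAP and 1.71 to 3.04 RPM in male total mRNA. It overlaps an antisense RNA gene, and counting did not use strand. Homeodomain transcription factors were among the 10. The last exon of otp had 10.4 to 12.4 RPM in female TRAP against 1.05 to 1.77 RPM in female total mRNA, and an internal exon of Lmx1a had 9.29 to 11.9 RPM against 1.26 to 1.77 RPM. The other leading exons lay in tey, CG15082, Rsph3 (a radial spoke protein of motile cilia), CG6999, CG12594 and CG7381. All 10 were called higher in male TRAP, with log2 fold changes of 1.19 to 3.11, and 8 of them were last exons. Female-only exons were chosen partly by failing the rule in these male libraries, so calls and p-values for them there are a description.

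In both sexes the exon with the highest lowest TRAP library was the first exon of CG13330, of 93 bases (2R:13515259-13515351). It had 13.7, 11.1, 13.3 and 12.5 RPM in male TRAP, against 0.489, 1.97, 1.31 and 1.63 RPM in male total mRNA, and 23.9, 12.2, 11 and 13.9 RPM in female TRAP, against 1.64, 1.17, 0.879 and 1.17 RPM in female total mRNA. This interval lies over Vmat, the vesicular monoamine transporter gene, and reads of the genes cannot be told apart there. The next was another exon of Tdc2 (2R:6685271-6685779), which had 6.99 to 18.5 RPM in male TRAP and 1.2 to 1.63 RPM in male total mRNA, and 11.9 to 18.4 RPM in female TRAP and 0.659 to 1.48 RPM in female total mRNA. Regulators of transcription were among the leading 10. They included Fer1, a basic helix-loop-helix factor, the nuclear receptor Hr51 and the homeobox gene C15. Hr51 had 8.69, 10.9, 9.35 and 6.94 RPM in male TRAP and 0.611 to 1.64 RPM in male total mRNA for its exon at 2R:15338911-15339075. The exon of Proc, which encodes the neuropeptide proctolin (2L:7870267-7870473), had 6.64, 5.19, 11.6 and 5.74 RPM in male TRAP and 15.4, 8.01, 4.7 and 4.63 RPM in female TRAP, with at most 1.84 RPM in any total mRNA library. The remaining exons of the 10 lay in CG5937, CG14695, CG4328 and rsh, the radish gene of memory.

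**Figure D3:**
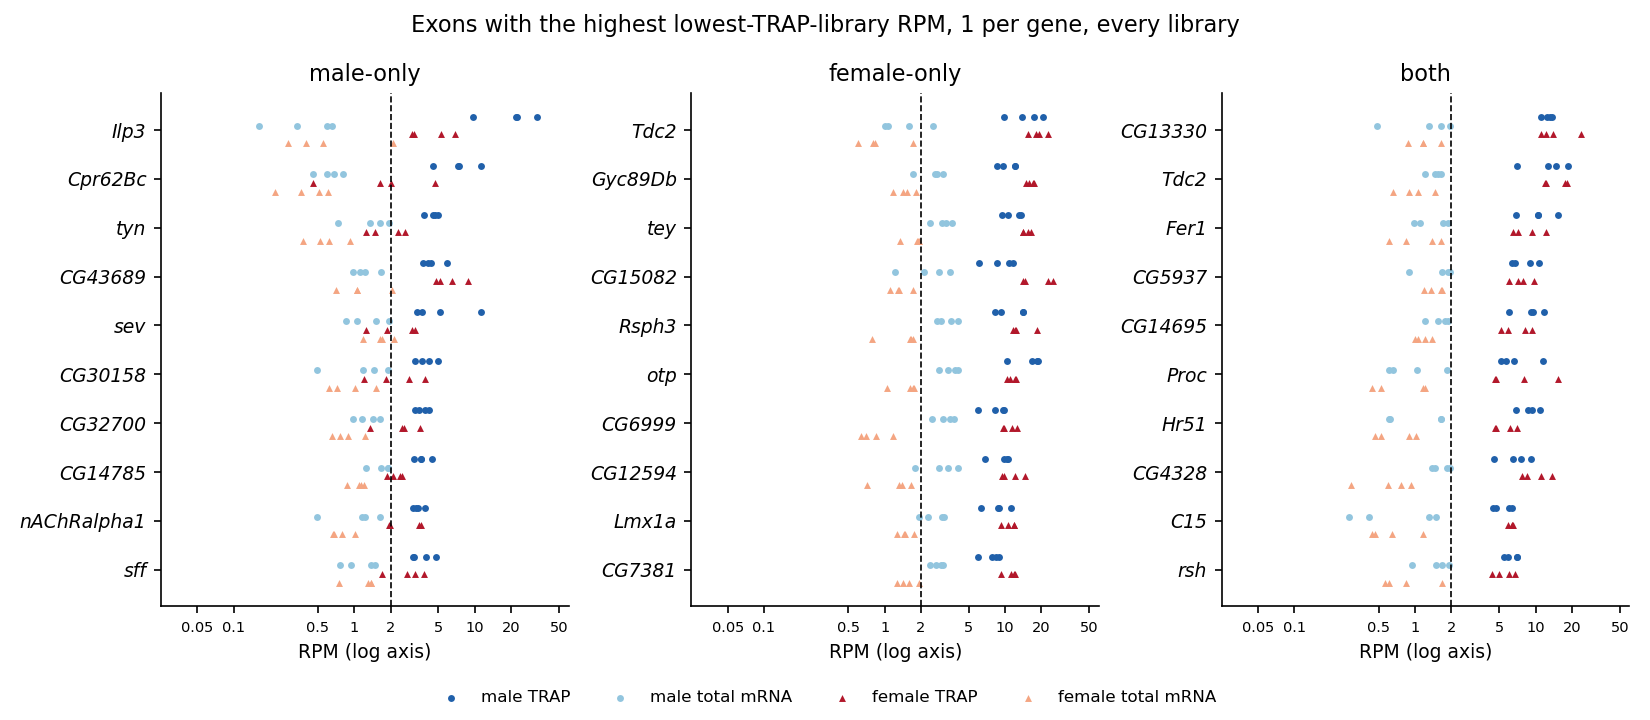
RPM (horizontal, log axis) in each library for the 10 exons, 1 per gene, with the highest lowest TRAP library in the male-only, female-only and both classes; blue circles are male and red triangles female libraries, dark for TRAP and light for total mRNA, and the dashed line marks 2 RPM. Ilp3 reached 9.63 to 32.7 RPM in male TRAP, and female-only exons such as that of otp exceeded 2 RPM in male total mRNA.

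Exons that met the rule were set beside all rows and beside rows above 2 RPM in TRAP by their place in the transcript. Internal exons made up 162 of 226 male-only rows (71.7%), 739 of 1291 female-only rows (57.2%) and 149 of 273 rows of both (54.6%). Among all rows above 2 RPM in the 4 male TRAP libraries they made up 49.6%, and in the 4 female TRAP libraries 46.9%, and among all 87508 rows 48.1%. Last exons were 31 (13.7%), 333 (25.8%) and 75 (27.5%) of the 3 classes, against 35.9% and 38.6% of all rows above 2 RPM in male and female TRAP and 21.1% of all rows. First exons were 29, 188 and 40 rows. RPM is not divided by length. Median lengths were 248 bases for male-only, 264 for female-only and 239 for both, against 526 and 550 bases for all rows above 2 RPM in male and female TRAP and 297 bases for all rows. Rows of the opposite kind, above 2 RPM in all 4 total mRNA libraries and at or below 2 RPM in all 4 TRAP libraries, had medians of 335 bases in males and 328 in females. The part of length in these shares was not tested.

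**Figure D4:**
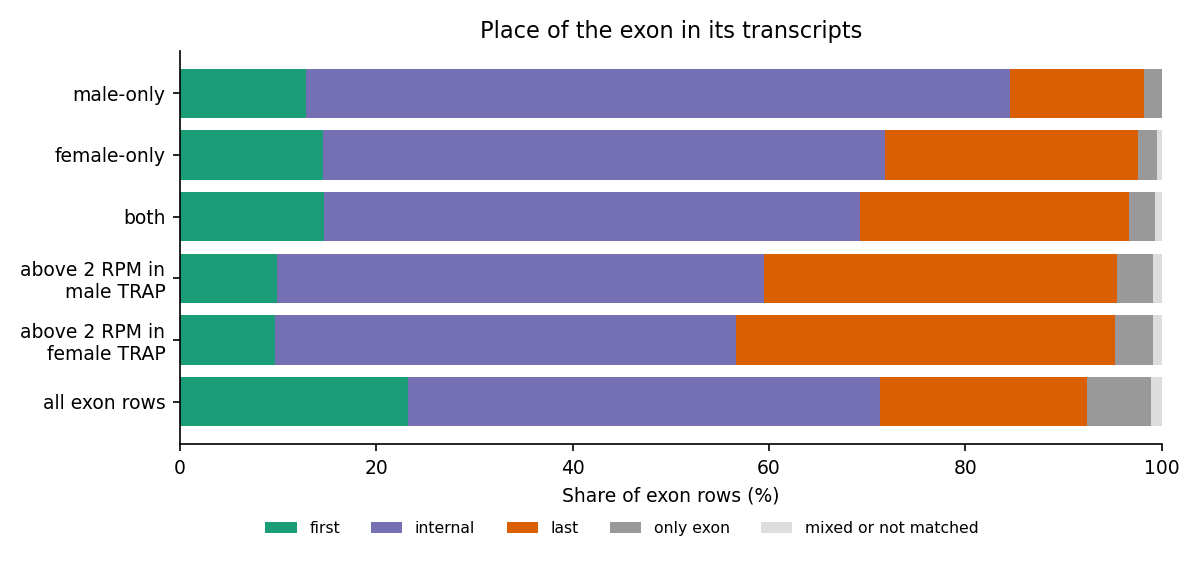
Share of exon rows (horizontal, %) that are the first, an internal, the last or the only exon of their transcripts (light grey, mixed or not matched to the annotation), for the 3 classes, for all rows above 2 RPM in the 4 TRAP libraries of each sex, and for all 87508 rows. Internal exons (purple) take 71.7% of the male-only class, 57.2% of the female-only class and 54.6% of both.

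By annotation, 821 of the 1790 rows (45.9%) were wholly coding, 469 (26.2%) were coding with 3′ UTR and 153 (8.55%) lay wholly in the 5′ UTR. Exons used by only part of a gene's transcripts made up 653 rows (36.5%), against 47.3% and 47.8% of all rows above 2 RPM in male and female TRAP. Among all rows they made up 42.2%. Noncoding RNA genes held 33 rows (1.84%) and pseudogenes 4. Among the noncoding rows, the exon of asRNA:CR45041 met the rule in both sexes with 5.35 ± 0.467 RPM in male TRAP and 1.3 ± 0.48 RPM in male total mRNA, and 5.01 ± 1.13 RPM in female TRAP and 0.695 ± 0.269 RPM in female total mRNA (SD, n = 4 each). It lies over CG34354. Of all 1790 rows, 272 (15.2%) overlapped another gene on either strand, and 456 (25.5%) overlapped another exon interval of their own gene, so that a read can count in several rows. The chromosome arms carried 306 rows on X (17.1%), 355 on 2L, 342 on 2R, 328 on 3L, 451 on 3R and 8 on 4, against 16.5% of all rows on X. Of the rows above 2 RPM in male and female TRAP, 19.1% and 19.3% lay on X.

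Most genes entered with a single exon. In males 303 of 382 genes (79.3%) and in females 654 of 972 genes (67.3%) had 1 distinct interval that met the rule. In all, 263 genes had an exon that met the rule in each sex, which is 68.8% of the male genes and 27.1% of the female genes, and 46 of them did so only through different exons. In males Hr51 had the most intervals, 6 of its 10, from the fourth exon to the last, followed by Ank2, klg and rsh with 4 and Ac78C with 3. Ank2 encodes an ankyrin, klg an immunoglobulin adhesion protein and Ac78C an adenylyl cyclase. In females CG34393 and Ptp99A, a receptor tyrosine phosphatase, had 9 intervals each, and mod(mdg4), nAChRalpha3 and rsh had 8.

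The other exons of these genes were set beside them, where they did not overlap an exon of the rule and passed the filter of the study. In males 1095 of 1472 such exons were higher in TRAP and 43 lower, against 31.4% higher and 29.5% lower over all 33155 exons tested. In females 2452 of 3108 were higher and 207 lower, against 40.7% higher and 36.9% lower over all 30192 exons. The exons share genes and libraries with those of the rule and are a description. By gene, 257 of 382 in males and 615 of 972 in females had other exons called higher and none lower, whereas 7 in males and 18 in females had other exons called lower and none higher. In 87 and 268 genes no other exon could be tested.

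In 3 of these genes the exon met the rule in both sexes, while in each sex other exons were called lower in TRAP and none higher. In FASN1, the fatty acid synthase, a first exon of 122 bases used by 1 of 2 transcripts (2L:3056989-3057110) had 2.05, 3.23, 3.19 and 4.21 RPM in male TRAP and 0.244 to 0.873 RPM in male total mRNA, and 3.49, 2.15, 5.19 and 7.4 RPM in female TRAP and 0.337 to 1.02 RPM in female total mRNA. Of 7 other FASN1 exon rows tested, 5 were lower in male TRAP and 7 in female TRAP. In Mitofilin, a protein of mitochondrial cristae, the exon was 21 bases long and lay in 1 of 3 transcripts (3R:22020702-22020722). It had 2.96 to 5.74 RPM in male TRAP and 1.1 to 1.86 RPM in male total mRNA, and 3.48 to 5.67 RPM in female TRAP and 0.801 to 1.57 RPM in female total mRNA. Of 10 other Mitofilin exons tested, 7 were lower in TRAP in each sex. In Snx6, a sorting nexin, it was an 18-base coding exon of 1 of 2 transcripts (2L:8218854-8218871), with 2.55 to 3.15 RPM in male TRAP and 1.42 to 1.93 RPM in male total mRNA, and 2.61 to 3.54 RPM in female TRAP and 0.714 to 1.14 RPM in female total mRNA. Here 1 of 6 other exons was lower in male TRAP and 3 of 6 in female TRAP, and the rest were not called in either direction.

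A 21-base coding exon of RIC-3, a chaperone of nicotinic receptors, was male-only (2R:21021501-21021521). It had 2.13 to 2.64 RPM in male TRAP and 1.34 to 1.76 RPM in male total mRNA, while 10 of 14 other exons of the gene were lower in male TRAP. Exons of at most 30 bases made up 11 of the 1790 rows (0.615%), against 0.164% and 0.156% of all rows above 2 RPM in male and female TRAP. They made up 0.795% of all rows, and 0.969% and 0.826% of the rows above 2 RPM in total mRNA only in males and females, so that the share was not above either. This length and the genes of these paragraphs were picked after the values had been seen. In su(w[a]), a splicing regulator, a 5′ UTR exon had 9.04 to 13.7 RPM in female TRAP and 1.09 to 1.63 RPM in female total mRNA, whereas 15 of 19 other exons were lower in female TRAP. That exon lies over CG11638, and its reads cannot be assigned to either gene.

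The tagged ribosomes were driven by fru P1-Gal4, and fru itself had 3 distinct exons that met the rule, all female-only. In females, splicing under control of the sex determination pathway lengthens the P1 exon that follows the first exon, by use of a site further downstream. The short form of this exon (3R:18515052-18515343, minus strand, 292 bases, 30.2 kb from the 5′ end of the gene) had 4.55, 4.56, 5.41 and 5.66 RPM in female TRAP and 0.59, 0.724, 0.351 and 0.561 RPM in female total mRNA. In males it had 1.3, 0.984, 1.7 and 0.602 RPM in TRAP and 0.0815, 0.386, 0.491 and 0.584 RPM in total mRNA, which is below the rule in TRAP, although higher than in total mRNA (log2 fold change 1.37, SE 0.49, edgeR adjusted p = 0.0194). The male values also made this exon female-only, so its p-value in males is a description. The short form lies within the long form of 1893 bases and shares reads with it. The long form had 27.3 ± 5 RPM in female TRAP and 3.79 ± 1.04 RPM in female total mRNA, so that total mRNA above 2 RPM kept it out of the rule, and 1.47 ± 0.607 RPM in male TRAP and 0.678 ± 0.328 RPM in male total mRNA (SD, n = 4 each). The difference of male from female TRAP for the long form was -4.32 on the log2 scale (SE 0.27).

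The other fru exons of the rule are common to its 15 transcripts, of 148 and 201 bases at 3R:18435643-18435790 and 3R:18435370-18435570. The 201-base exon had 8.08, 4.62, 3.12 and 4.3 RPM in female TRAP and 1.64, 1.45, 1.71 and 1.68 RPM in female total mRNA, and 2.54, 2.28, 2.72 and 1.81 RPM in male TRAP and 1.06, 1.29, 0.546 and 2.21 RPM in male total mRNA. The log2 fold change in males was 0.69 (SE 0.33, edgeR adjusted p = 0.0932). For the 148-base exon it was 0.37 (SE 0.32, edgeR adjusted p = 0.433), which did not pass. A last exon of fru, of 3028 bases, lay above 2 RPM in total mRNA as well, with 85.1 ± 17.7 RPM in male TRAP and 11.7 ± 3.14 RPM in male total mRNA, and 55.2 ± 12.4 RPM in female TRAP and 8.16 ± 2.95 RPM in female total mRNA. No exon of RpL10Ab, the endogenous gene of the tagged protein, met the rule. Its last exon had 1938 ± 470 RPM in male TRAP and 850 ± 88.7 RPM in male total mRNA, and 2249 ± 214 RPM in female TRAP and 1166 ± 85.3 RPM in female total mRNA. The flies carried UAS-GFP::RpL10A, and any reads of this transgene were not told apart from those of the endogenous gene.

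**Figure D5:**
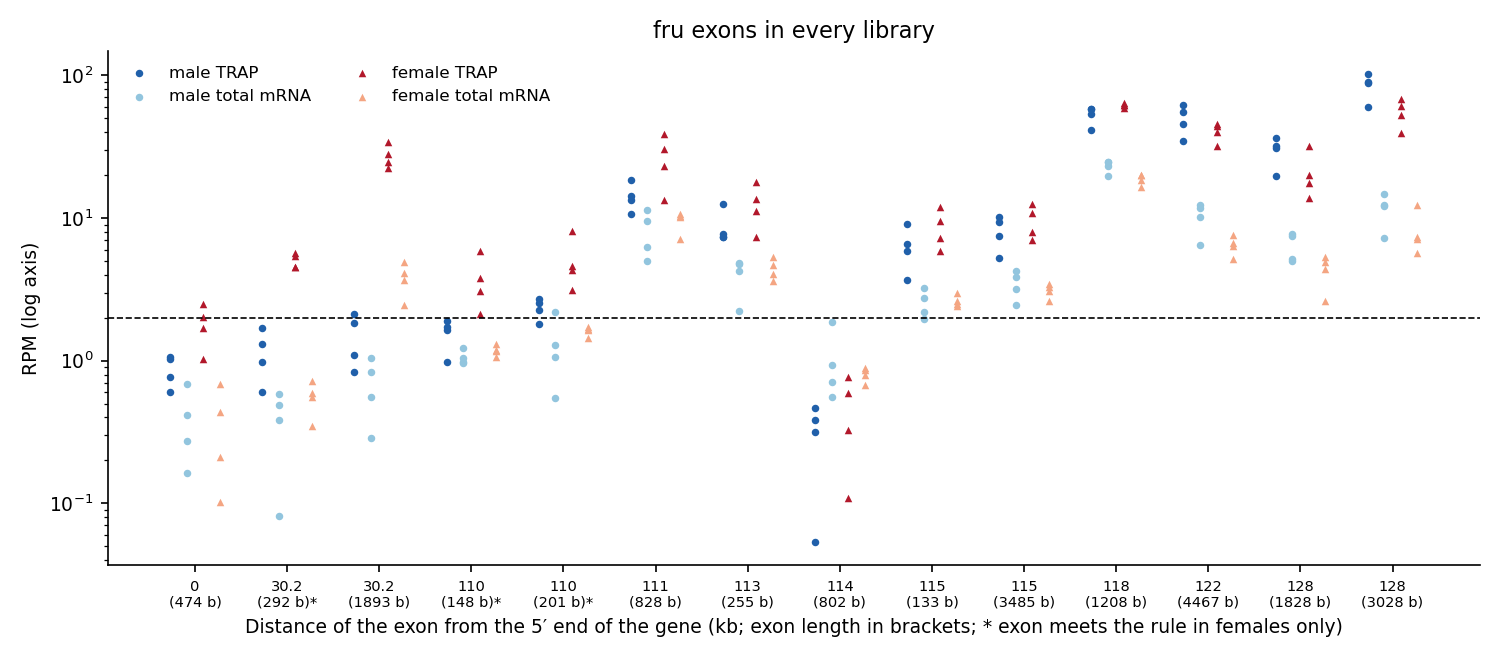
RPM (vertical, log axis) of fru exons in each library, in order of distance from the 5′ end of the gene (kb) with exon lengths; only exons with a library above 1 RPM are drawn, a star marks exons that met the rule in females only, and the dashed line marks 2 RPM. The long form at 30.2 kb had 27.3 RPM on average in female TRAP and 1.47 RPM in male TRAP.

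Lists of genes with known roles in neurons were set beside the 6.15% of all genes that had an exon of the rule. That share also counts genes with no exon above 2 RPM in TRAP. A gene with more exon rows has more chances to enter, and shares by gene were not corrected for this. The 37 ion channel genes held 903 rows, the 30 synaptic genes 542 and the 32 dpr and DIP genes 330. All 17753 genes held 87508 rows. Over all genes the rows split into 226 male-only, 1291 female-only and 273 of both. For the lists, counts called in the other sex stand beside the whole rule and all exons given above, which for the female rule in male libraries are 78.5% and 27.4% called higher, and for the male rule in female libraries 90.8% and 36.5%. Nothing particular to a list is read from them. Among families of cell adhesion proteins that pair across synapses, 21 of 32 dpr and DIP genes (65.6%) and 16 of 22 beat and side genes (72.7%) had one. Of the genes with an exon above 2 RPM in every female TRAP library, the female rule took 66.7% in the dpr and DIP list and 59.1% in the beat and side list, against 12% of all such genes. By this measure the shares were 27.6% for neuropeptides, 46.4% for peptide receptors, 18.2% for amine and other metabotropic receptors and 47.8% for ionotropic receptors. They were 37.5% for ion channels, 31% for synaptic genes, 27.9% for transcription factors and 16.7% for transmitter genes. For the male rule and male TRAP, the share of all genes was 4.66%. It was 20% for dpr and DIP genes, 36.4% for beat and side genes and 27.6% for neuropeptides. Peptide receptors had 21.4%, amine and other metabotropic receptors 18.2%, ionotropic receptors 24% and ion channels 12.5%. Synaptic genes had 17.2%, transcription factors 11.4% and transmitter genes 16.7%. In male libraries, 40 of 42 dpr and DIP exons of the female rule were higher in TRAP and none was lower, with a median log2 fold change of 1.02, and 30 of 32 beat and side exons were higher. The last exon of DIP-zeta (2L:9051631-9053140) had 8.62 ± 1.71 RPM in female TRAP and 1.17 ± 0.308 RPM in female total mRNA, and 8.73 ± 2.33 RPM in male TRAP and 2.21 ± 0.424 RPM in male total mRNA (SD, n = 4 each). The last exon of dpr17 had 9.68 ± 1.55 RPM in female TRAP and 1.64 ± 0.27 RPM in female total mRNA, and an internal exon of beat-IIa had 7.33 ± 1.18 and 1.85 ± 0.107 RPM there.

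Neuropeptide genes contributed 11 of 47 (23.4%), with 6 male-only, 4 female-only and 4 exon rows of both. All 10 exons of the male rule were higher in female TRAP (median log2 fold change 2.08) and all 8 of the female rule were higher in male TRAP (2.37). Dh31, a diuretic hormone, had 6.05 ± 2.27 RPM in female TRAP and 0.794 ± 0.263 RPM in female total mRNA for a female-only exon, and 12.2 ± 4.84 RPM in male TRAP and 2.47 ± 0.823 RPM in male total mRNA. AstC, allatostatin C, had 5.69 ± 1.43 RPM in female TRAP and 1.11 ± 0.451 RPM in female total mRNA. Peptide receptors contributed 14 of 39 genes (35.9%). The last exon of CCKLR-17D3, a receptor for drosulfakinin, had 9.07 ± 0.618 RPM in female TRAP and 1.64 ± 0.321 RPM in female total mRNA, and that of AstC-R2, an allatostatin C receptor, had 7.76 ± 0.973 and 1.25 ± 0.49 RPM. Of 23 peptide receptor exons of the female rule, 21 were higher in male TRAP.

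Receptors for amines and other metabotropic receptors contributed 7 of 24 genes (29.2%). They held 6 male-only and 5 female-only rows and no row of both sexes. Over all 1790 rows of the rule, 273 were of both, so nothing is read from their absence among so few rows. In female TRAP 6 of 6 exons of the male rule were higher, and in male TRAP 3 of 5 of the female rule. An internal exon of Oct-TyrR, an octopamine and tyramine receptor, had 6.28 ± 1.66 RPM in female TRAP and 1.57 ± 0.346 RPM in female total mRNA, and the last exon of the serotonin receptor 5-HT1B, which was male-only, had 2.88 ± 0.401 RPM in male TRAP and 1.17 ± 0.35 RPM in male total mRNA. Ionotropic receptors contributed 11 of 31 genes (35.5%), with 2 male-only, 25 female-only and 7 rows of both. In nAChRalpha3 alone 8 intervals met the female rule, and its exon at X:8307006-8307300 had 4.43 ± 0.494 RPM in female TRAP and 0.819 ± 0.337 RPM in female total mRNA. In male libraries 27 of 32 ionotropic receptor exons of the female rule were higher in TRAP. The glutamate receptor subunit GluRIA had 6.84 ± 1.34 RPM in female TRAP and 1.42 ± 0.405 RPM in female total mRNA for its last exon.

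Ion channels contributed 13 of 37 genes (35.1%), with 5 of 7 exons of the male rule higher in female TRAP and 29 of 31 of the female rule higher in male TRAP. The exon of na, a sodium leak channel, had 6.72 ± 1.4 RPM in female TRAP and 1.8 ± 0.145 RPM in female total mRNA, and that of the potassium channel Shaw had 6.63 ± 1.33 and 1.51 ± 0.345 RPM. Synaptic genes contributed 11 of 30 (36.7%), with 9 of 9 exons of the male rule higher in female TRAP and 11 of 16 of the female rule higher in male TRAP. The active zone gene Fife had 8.78 ± 2.39 RPM in female TRAP and 1.18 ± 0.282 RPM in female total mRNA. Transmitter genes contributed 3 of 19, Tdc2, Trhn (neuronal tryptophan hydroxylase, for serotonin) and prt, a vesicular transporter. Trhn had 6.61 ± 2.25 RPM in female TRAP and 1.37 ± 0.21 RPM in female total mRNA. Transcription factors contributed 12 of 62 genes (19.4%), with 16 of 21 exons of the female rule higher in male TRAP. The first exon of acj6, a POU domain factor, did not pass there: it had 2.87 ± 0.465 RPM in male TRAP and 2.14 ± 0.768 RPM in male total mRNA (log2 fold change 0.22, SE 0.30, edgeR adjusted p = 0.666), beside 5.01 ± 0.653 RPM in female TRAP and 1.28 ± 0.351 RPM in female total mRNA. Without male total mRNA replicate 3 it was called higher (adjusted p = 0.133).

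Of lists with many genes that a head library hardly detects, few genes entered. Of 185 chemosensory receptor genes 3 had an exon of the rule, Or63a, Or83a and Ir76b, and of 29 ppk channel genes only ppk19 had one, in an exon that lies over Bub3. The male-only exon of Or63a had 2.48 ± 0.277 RPM in male TRAP and 1.21 ± 0.389 RPM in male total mRNA. Set beside the genes with an exon above 2 RPM in every TRAP library, these shares look different: 2 of 8 chemosensory genes (25%) in males and 2 of 7 (28.6%) in females, and 1 of 2 ppk genes (50%) in females, against 4.66% and 12% of all such genes. Of 2388 noncoding RNA genes 29 had an exon of the rule (1.21%), which is 5.36% of those detected in male TRAP and 9.69% of those in female TRAP, and 15 of 16 such exons of the male rule were higher in female TRAP. Of 951 small RNA genes 1 did, mir-4976, whose interval lies over CG15236.

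Exons of both sexes were also set side by side between male and female TRAP. The rule used the levels of these same 8 libraries, so the comparison is a description and its counts are no evidence of a difference between the sexes. In the fit across all exons, 6 of 273 exons (2.2%) lay past an FDR of 0.2 as higher and 8 (2.93%) as lower in male TRAP by the exact test of edgeR, where 1.22% and 1.06% of all 32913 exons did. The median log2 fold change was -0.11, against 0.03 for all exons. With the quasi-likelihood test of edgeR 4 were higher and 4 lower, without the exons of prt, CG30053, CG42284, CG12994, dpr8 and slou.

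Neuropeptide genes were among the exons with higher levels in males. The first exon of Ilp5, an insulin-like peptide (3L:9823711-9823897), had 22.6, 20.7, 31.6 and 5.79 RPM in male TRAP and 7.16, 3.58, 3.88 and 3.32 RPM in female TRAP. The groups overlapped through male replicate 5, and the log2 fold change was 2.06 (SE 0.39). The first exon of Hug, the hugin neuropeptide gene (3R:12526188-12526439), had 15.5, 17, 17.2 and 5.69 RPM in male TRAP and 8.77, 4.1, 3.66 and 3.27 RPM in female TRAP, with the same male library lowest (log2 fold change 1.39, SE 0.34). In CG8401 a pair of neighbouring exons had higher levels in males, one with 19 ± 5.71 RPM in male TRAP and 6.52 ± 1.68 RPM in female TRAP (SD, n = 4 each; log2 fold change 1.43, SE 0.25). The remaining exons on this side were those of prt and CG30053, which stayed past the threshold in 6 and 2 of the 8 fits that left out a library.

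On the other side was the last exon of CCHa1, which encodes the neuropeptide CCHamide-1 (3R:14092504-14093037), with 4.43, 4.64, 5.7 and 3.43 RPM in male TRAP and 8.04, 10.6, 11.3 and 13.9 RPM in female TRAP. These groups did not overlap, and the log2 fold change was -1.37 (SE 0.23). An exon of Klp54D, a kinesin-like protein, had 4.74 ± 1.42 RPM in male TRAP and 9.58 ± 2.38 RPM in female TRAP (SD, n = 4 each; log2 fold change -1.10, SE 0.22). CG13203, CG32683 and CG42284 had log2 fold changes of -1.34, -1.29 and -1.37, and CG12994 had -0.90. The exons of dpr8 and slou, a homeodomain gene, stayed past the threshold in 4 and 3 of the 8 fits that left out a library.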

How the data were processed

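Heads were measured by RNA sequencing in 16 libraries, 4 each of male and female TRAP and total mRNA. Per the methods of the study, reads of 100 bases from non-directional poly(A) libraries were aligned with STAR and counted per exon with featureCounts. The submitters' processing notes name dm6, STAR 2.7.2a and SAMtools 1.2, with no step given for SAMtools. The deposited count of each exon row is raw; the annotation release is not given in the sources used here. The deposited RPM values equalled counts divided by the library sum (largest difference 5.09e-11). Transcript position and region came from the Ensembl annotation BDGP6.54, and sequences are not printed. Columns of per-sample values without a label match numbered 0.

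Exons were compared with the exact test of edgeR 4.0.16 (TMM, FDR under 0.2) in R 4.3.3, as in the methods of the study. Tests in the other sex kept exons with a mean CPM of at least 0.5, and the other tests kept a CPM above 2 in 60% of 8 libraries. Only the whole male or female rule is independent of the other sex. The sex-only classes also used its values, so p-values of single sex-only exons there are a description. Standard errors are from the quasi-likelihood fit. Scripts were tested on simulated data. The exons and gene lists were chosen with earlier results of these data known. Named exons are the 10 per class, 1 per gene, with the highest lowest TRAP library; the 5 genes per sex with most intervals; up to 4 per gene list; the 5 lowest p per direction between the sexes, 1 per gene; fru and RpL10Ab. The study calls its TRAP replicates biological; how the collections of flies were separated is not given in the sources used here, and p-values measure the spread between these libraries. No pair of replicates agreed within sampling noise, with a chi-square per degree of freedom of at least 6.03.

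Same-numbered libraries were checked for pairing by the correlation of their deviations from group means. It was 0.245 to 0.573 for female TRAP and total mRNA (4 pairs). All lay above a set minimum of 0.1, so these numbers were read as pairing, from the data and not from a label. Libraries of unlike number were not compared in this way. The main tests did not use the pairing, which entered only as a block in an alternative.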

Additional observations from a re-analysis of the deposited data

Results flagged for a closer look

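Among the exons named in the report, 212 groups of 4 libraries were examined and 11 held a library far from the other 3; chance flags about 1 in 20 groups. In female total mRNA, the exon of tey had 1.35 RPM in replicate 2, against 1.85 to 1.93 RPM in the others; that of Rsph3 had 0.791 RPM in replicate 4, against 1.64 to 1.73 RPM; and that of Oct-TyrR had 1.05 RPM in replicate 4, against 1.68 to 1.77 RPM. Higher than the others in female total mRNA replicate 5 were DIP-zeta with 1.63 RPM, against 0.967 to 1.05 RPM, and CG8401 with 0.867 RPM, against 0.422 to 0.442 RPM. In female TRAP, replicate 2 was highest for Rsph3 with 18.3 RPM, against 11.7 to 12.3 RPM, for Ilp5 with 7.16 RPM, against 3.32 to 3.88 RPM, and for Hug with 8.77 RPM, against 3.27 to 4.1 RPM. Replicate 5 was highest for Fife with 12.4 RPM, against 7.49 to 7.65 RPM. In males, Hug had 5.69 RPM in TRAP replicate 5, against 15.5 to 17.2 RPM, and Ilp5 had 1.63 RPM in total mRNA replicate 2, against 0.25 to 0.437 RPM.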

How the results depend on the processing

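The counts of exons depend on the threshold and scale of the rule. In the order males, females, males only, females only and both sexes, they were 499, 1564, 226, 1291 and 273 as reported. They were 301, 916, 179, 794 and 122 at 1 RPM, 867, 2232, 321, 1686 and 546 at 4 RPM, 26, 151, 15, 140 and 11 with total mRNA at or below 1 RPM, 284, 616, 144, 476 and 140 with CPM scaled by TMM factors, 260, 615, 135, 490 and 125 with RLE size factors, and 2101, 3374, 893, 2166 and 1208 where 3 of 4 libraries sufficed. Leaving out a library gave 499 to 839 in males, 1564 to 1939 in females, 185 to 489 in males only, 1200 to 1660 in females only and 273 to 364 in both. The highest counts in males and in males only, 839 and 489, came without male TRAP replicate 5, and those without male total mRNA replicate 4 were 770 and 406.

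With the filter of the study, 20 exons of the male rule were tested in females and 14 were called higher in TRAP. Of the female rule, 1046 exons were tested in males and 754 were called higher. The exon of the male rule called lower was not called with library totals, at an FDR under 0.05 or without a filter (0 exons each). Between male and female TRAP, 4 exons were lower with the quasi-likelihood test. Of other exons of the same genes in males, 1808 of 3289 (55%) without a filter and 1660 of 2562 (64.8%) with a mean CPM of 0.5 were higher. Over all exons 19.5% and 27.4% were. In females 4224 of 7386 (57.2%) and 3834 of 5429 (70.6%) were higher, against 26% and 36.5% over all exons. The shares as reported were 74.4% in males and 78.9% in females. Lower were 17 (1.15%) of these other exons with library totals and 70 (2.73%) with the mean CPM filter in males. In females 94 (3.02%) and 311 (5.73%) were lower. Over all exons these shares were 20.9% and 26.4% in males and 24.8% and 33.4% in females. With library totals alone the median over all exons moved to 0.34 (female libraries) and 0.23 (male libraries) on the log2 scale. Leaving out a library gave 427 to 447 higher and 0 to 3 lower exons for the male rule, 1032 to 1251 and 3 to 6 for the female rule, 4 to 8 and 6 to 13 between male and female TRAP, and for other exons 947 to 1069 and 35 to 52 in males and 2141 to 2328 and 180 to 223 in females. The causes of these changes were not tested.

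Alternatives chosen after seeing the data gave 440 of 485 exons higher for the male rule with 1 row for each interval and 383 of 425 without exons that overlap another gene, and 1187 of 1510 and 1023 of 1311 for the female rule. With the replicate number as a block, 463 exons of the male rule and 1354 of the female rule were called higher, and 4 higher and 6 lower between male and female TRAP; the block moved no count by over 1.5 times. Male numbers were not read as pairing the libraries (correlations of 0.057, 0.105 and 0.239, the lowest under the minimum of 0.1). Same-numbered libraries of male and female TRAP had correlations of -0.18, -0.04 and 0.213. Between the sexes the block therefore does not stand for pairs, and calls lost under it are given as a description. Over 116 single exons, the block lost those of CG30053 and prt between the sexes; it also lost those of dpr8 and slou, which are not among these 116, and leaving out a library lost a call in 9. Exons near 2 RPM rest on 30.7 to 50.8 reads per library, so that counting error alone can move them across the threshold.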
